A study of Mus musculus with 8 samples.

Results

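Matrix metalloproteinases (MMPs), their tissue inhibitors (TIMPs) and ADAMTS proteases were read across early mouse development, from the mature oocyte to the implantation site. The group comprised 10 genes chosen by name: Mmp2, Mmp9, Mmp11, Mmp14, Mmp15, Timp1, Timp2, Timp3, Adamts1 and Adamts5. All probe sets annotated to 1 of these genes alone were used, which gave 24 probe sets for 9 genes. These were 24 of 34945 probe sets annotated to a single gene, and 9 of 18193 genes measured. Mmp15, which encodes a membrane-anchored metalloproteinase, was not analysed here, as the annotation used here ties no probe set to it alone.

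MMPs are zinc-dependent enzymes that are made as inactive precursors and cleave collagens, gelatin and other proteins of the extracellular matrix once their propeptide is removed. TIMPs bind the active site of these enzymes and block it; TIMP-2 also takes part with MMP-14 in activating pro-MMP-2 at the cell surface, and TIMP-3 stays bound to the matrix and inhibits ADAMTS enzymes as well. ADAMTS1 and ADAMTS5 cleave large proteoglycans such as versican and aggrecan. In rodents, matrix turnover accompanies trophoblast invasion and the remodelling of uterine stroma into decidua.

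RNA came from MII oocytes, blastocysts and implantation sites, each as an arm labelled KO, for loss of connexin 43 (Gja1), and an arm labelled WT. Oocytes had 1 array of each genotype, blastocysts 2 and implantation sites 1, which makes 8 Affymetrix arrays of polyadenylated RNA. The series title describes an oocyte-directed depletion, but nothing is stated on the strain, the driver of the deletion, the age of the animals, how many oocytes or embryos were pooled for an array or the day of collection. The design asked how connexin 43 affects the transcriptome at each of these stages, and nothing in the labels says that replicates came from separate animals, and p-values therefore reflect no more than the spread among the arrays.

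Signal is the MAS5 intensity on a linear scale, with a 2% trimmed mean of 500 on every array. A signal was called above background where it exceeded the brightest of 15 Bacillus control probe sets of that array, a level that ranged from 100.2 to 560 and was higher on the blastocyst arrays labelled KO (395 and 560) than on those labelled WT (199 and 219). Another 12 Bacillus control probe sets were not used. Their brightest read 588 and 171 in oocytes (KO and WT) and 100.1 and 174 at the implantation sites. In blastocysts it was 535 and 408 under the KO label and 322 and 345 under the WT label. Calls and bounds on signals between the 2 levels, such as Mmp14 at 409 and Adamts1 at 461 in oocytes labelled KO, depend on this choice. Gja1 itself, on its brightest probe set, read 150 and 126 in oocytes labelled KO and WT, both below background, and 28105 and 44493 at the corresponding implantation sites. In blastocysts it read 375 and 553 on the arrays labelled KO, both below background, and 9835 and 574 on those labelled WT, both above it. The second blastocyst array labelled WT thus lay near the KO arrays in signal and far below the first, though above its own background. These values do not settle whether its label is right. In oocytes Gja1 was near or below background, and at the implantation sites it was far above background under both labels. It thus does not settle those labels either. Each KO against WT difference below is therefore a difference between labels. For blastocysts the values without the second array labelled WT are given as well.

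Marker genes were read as a check of the tissue of each stage. Defining markers of trophectoderm and inner cell mass were present in blastocysts, and the trophectoderm list of 7 genes summed to between 44225 and 55190 there. At the implantation sites, which the labels call embryos, that list summed to 1265 (KO) and 1382 (WT). Cdx2, Nanog and Sox2 were below background on both of these arrays, while Krt8, Krt18, Eomes and Klf4 were above it, Klf4 at 2502 and 6151. The 6 markers of visceral and primitive endoderm summed to 13355 and 8227 there against 1252 to 6092 on the other arrays, mostly from Ttr (8783 and 4915) and Sox17 (4243 and 2872), with Afp and Apoa1 below background. The 8 markers of decidual and uterine stroma summed to 74169 and 61843 at the implantation sites against 1433 to 2833 on the other 6 arrays, led by Pgr, the progesterone receptor, at 30636 and 27384. Of these 8 genes 7 were above background on the array labelled KO and all 8 on that labelled WT. Des read 26.6 on the former, and Prl8a2 read 217 and 211 at the implantation sites against 708 and 588 in oocytes. Leukocyte markers summed to 24455 and 22552 there and to between 1034 and 13943 on the other arrays, with Csf1r and Ptprc both above background. In bulk RNA, fewer cells of a type and less RNA per cell cannot be told apart. The part of these tissue differences in the stage results below was not tested.

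The promoter sequences of 6 genes were found in the RefSeq table of GRCm38.p6, namely Mmp11, Mmp14, Timp1, Timp2, Timp3 and Adamts1. The 4 shown are those of the TIMP genes and of Adamts1, chosen because Timp2, Timp3 and Adamts1 were brighter at the implantation site than in blastocysts and Timp1 was not. Each runs 5′ to 3′ on the transcribed gene's strand, from 250 bases before the start site to 50 after it, and capitals mark the GC box, searched as GGGCGG on both strands.
Timp1, chrX:20869916-20870215, plus strand: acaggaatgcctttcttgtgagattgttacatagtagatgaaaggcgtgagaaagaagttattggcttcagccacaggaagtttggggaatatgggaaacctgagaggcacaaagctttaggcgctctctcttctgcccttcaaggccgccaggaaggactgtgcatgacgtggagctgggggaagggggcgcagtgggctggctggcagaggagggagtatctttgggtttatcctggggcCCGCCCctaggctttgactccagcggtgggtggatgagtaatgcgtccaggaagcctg
Timp2, chr11:118355362-118355661, minus strand: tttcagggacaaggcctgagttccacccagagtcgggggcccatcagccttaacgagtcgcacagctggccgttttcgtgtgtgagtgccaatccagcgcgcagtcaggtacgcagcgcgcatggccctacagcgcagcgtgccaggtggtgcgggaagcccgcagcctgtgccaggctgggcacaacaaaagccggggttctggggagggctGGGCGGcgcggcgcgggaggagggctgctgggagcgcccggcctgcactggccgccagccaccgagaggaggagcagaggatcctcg
Timp3, chr10:86300162-86300461, plus strand: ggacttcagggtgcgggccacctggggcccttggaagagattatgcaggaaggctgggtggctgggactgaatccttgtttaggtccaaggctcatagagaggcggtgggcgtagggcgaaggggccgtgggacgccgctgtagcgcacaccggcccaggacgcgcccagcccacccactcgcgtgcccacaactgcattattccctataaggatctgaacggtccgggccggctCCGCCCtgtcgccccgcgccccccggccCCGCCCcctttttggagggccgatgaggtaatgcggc
Adamts1, chr16:85803064-85803363, minus strand: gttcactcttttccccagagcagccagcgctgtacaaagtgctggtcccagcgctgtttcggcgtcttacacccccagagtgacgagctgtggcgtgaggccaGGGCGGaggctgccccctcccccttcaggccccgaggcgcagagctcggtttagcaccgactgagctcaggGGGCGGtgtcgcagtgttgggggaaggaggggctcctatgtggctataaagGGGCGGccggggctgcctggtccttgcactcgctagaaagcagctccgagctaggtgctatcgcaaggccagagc
All 6 windows held at least 1 GC box, with 4 in Mmp11, 3 in Adamts1, 2 each in Mmp14 and Timp3 and 1 each in Timp1 and Timp2, while 35.7% of 32851 promoters of the same length held one. GC content of the 6 windows ranged from 55% in Timp1 to 68.7% in Timp2, against a median of 52.7% over all promoters. The TATA box, searched as TATAAA, was found in Adamts1 alone, where it began 32 bases before the start site, and in 13.6% of all promoters. CCAAT was found in Mmp14, Timp1 and Timp2 and in 37.4% of all promoters, and the match nearest the start of Mmp14 shared 1 base with its first GC box. The AP-1 motif TGANTCA was in none of the 6 windows and in 7.81% of all promoters. These are matches of letters in the window, and Timp1, which did not share the stage pattern, held a GC box as the others did.

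**Figure D1:**
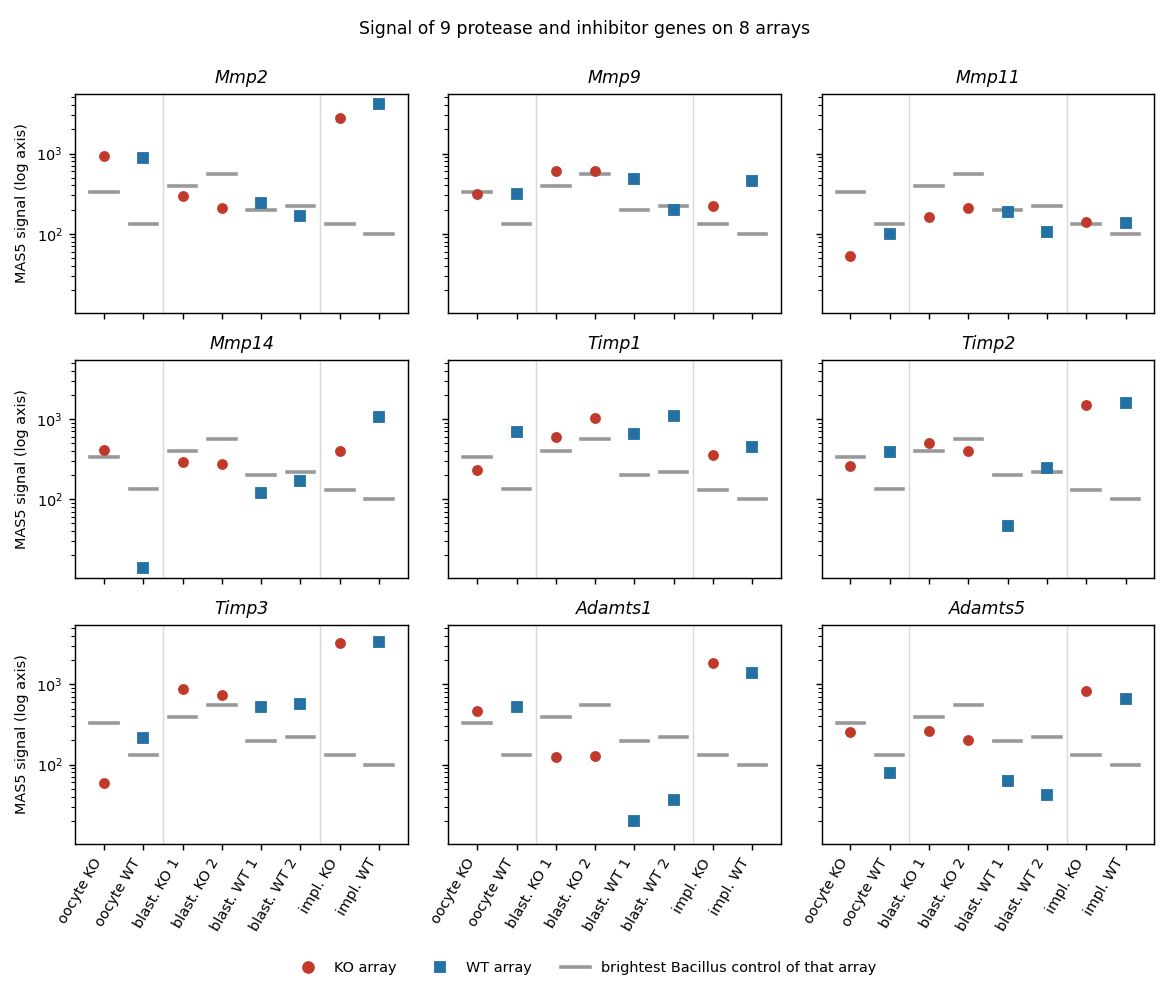
MAS5 signal (log axis) of the brightest probe set of each gene on the 8 arrays, circles for arrays labelled KO, squares for arrays labelled WT, grey bars for the brightest Bacillus control of that array. Mmp2, Timp2, Timp3, Adamts1 and Adamts5 are highest on the 2 implantation site arrays, and many blastocyst points lie at or below the grey bars.

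Of the 24 probe sets, 22 were above background on at least 1 array. The count was 18 on both implantation site arrays, 3 on both oocyte arrays and 2 on all 4 blastocyst arrays, and 13 probe sets were above background on no blastocyst array. The blastocyst was thus the stage where the group was most often not measured, and folds against it are given as lower bounds where none of its arrays was above background. A fitted log2 difference printed beside such a bound carries the test and is not a size. Each gene is represented below by its brightest probe set on average over the 8 arrays, and the other probe sets are described where a gene has several.

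Between blastocyst and implantation site, 5 of the 9 genes rose and 0 fell by limma (adjusted p under 0.05 over all genes), whereas 10.5% of all genes rose, 15.1% fell and 25.6% passed in either direction. The genes that rose were the gelatinase gene Mmp2, the inhibitors Timp2 and Timp3, and both ADAMTS proteases. The median of the fitted log2 differences of the 9 genes was 2.31, beside -0.49 for all genes, and these fitted values include signals below background. Both implantation site arrays lay above all 4 blastocyst arrays for 6 genes, those 5 and Mmp14, while 19% of all genes showed this order, and both lay below for Timp1, an order shown by 29.1% of all genes. Between oocyte and blastocyst the group did not move together: Timp3 rose and Mmp2 and Adamts1 fell, while 16.9% of all genes rose, 13.1% fell and 30% passed in either direction. From oocyte to implantation site 2 genes passed, Mmp2 and Timp3, both higher, while 13.2% of all genes were higher, 12.2% lower and 25.4% passed in either direction. Without the implantation site array labelled KO or WT the blastocyst to implantation site count of 5 was 2 or 3, and the oocyte to implantation site count of 2 was 1 without the oocyte or the implantation site array labelled WT.

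**Figure D2:**
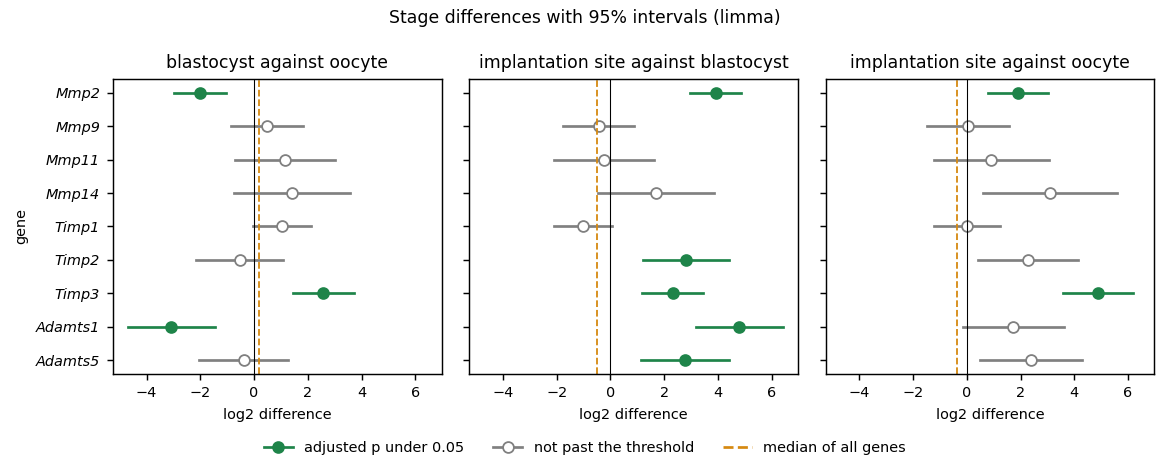
Fitted log2 difference between stages with 95% intervals from limma, in part on signals below background, filled green where the adjusted p was under 0.05, and the median of all genes as a dashed line. Timp3 is higher at each later stage, while Mmp2 and Adamts1 fall to the blastocyst and rise again at the implantation site.

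Mmp2 encodes gelatinase A, a secreted protease that degrades type IV collagen and gelatin. Its signal on probe set 1416136_at was 927 and 875 in oocytes (KO and WT), 300 and 207 on the blastocyst arrays labelled KO, 239 and 166 on those labelled WT, and 2747 and 4121 at the implantation sites. Every oocyte and implantation site array was above every blastocyst array, and only 1 of the 4 blastocyst arrays was above background. From blastocyst to implantation site Mmp2 rose by 3.92 log2 units (SE 0.45, limma adjusted p = 2.98e-05), 15.1-fold as measured. From oocyte to blastocyst it fell by 2.01 (SE 0.45, adjusted p = 0.00285), and from oocyte to implantation site the difference was 1.90 (SE 0.51, adjusted p = 0.0136). The last call was lost on leaving out either oocyte array or the implantation site array labelled WT, with adjusted p = 0.0575, 0.067 and 0.145 from limma, and without the intensity trend (0.0515).

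The other Mmp2 probe set, 1439364_a_at, had the same order with a wider range. It read 2008 and 1102 in oocytes, between 23.1 and 88.5 in blastocysts and 3801 and 6952 at the implantation sites. No blastocyst array was above background, so the oocyte signal was at least 4.74-fold and the implantation site signal at least 16.4-fold that of blastocysts. Such a bound sets the mean of the brighter stage against the mean of each dim array's background level, or its own signal where that was higher.

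Mmp9, gelatinase B, is associated with trophoblast invasion and with leukocytes. Its signal was 310 and 312 in oocytes, 613 and 606 on the blastocyst arrays labelled KO, 483 and 196 on those labelled WT, and 225 and 454 at the implantation sites. The ranges of the 3 stages overlapped, and no stage difference passed: the largest was 0.48 from oocyte to blastocyst (SE 0.62, limma adjusted p = 0.627). A further probe set, 1448291_at, was above background on 1 array alone.

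Mmp11, stromelysin-3, is known from stromal cells around invading or remodelling epithelium. Its single probe set read 53.3 and 100.4 in oocytes, between 105 and 210 in blastocysts and 140 and 135 at the implantation sites. Only the 2 implantation site arrays were above background, just past levels of 131 and 100.2, so its stages cannot be ordered beyond background.

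Mmp14 encodes the membrane-anchored enzyme MT1-MMP, which activates pro-MMP-2. Its brightest probe set, 1448383_at, read 409 and 13.8 in oocytes, 293 and 273 on the blastocyst arrays labelled KO, 119 and 169 on those labelled WT, and 400 and 1047 at the implantation sites. The 2 oocyte arrays held the lowest value of all and one close to the implantation site array labelled KO, and neither stage comparison with the implantation site passed. No blastocyst array was above background, and the implantation site signal was at least 2.06-fold that of blastocysts (fitted log2 difference 1.69, SE 1.01, limma adjusted p = 0.233). Against oocytes, with 1 of 2 arrays above background, the fitted difference was 3.11 (SE 1.16, adjusted p = 0.0652). Without the implantation site array labelled WT, the fitted difference from blastocysts was -0.15. The oocyte comparison passed without the oocyte array labelled KO (adjusted p = 0.00632), without the implantation site array labelled KO (adjusted p = 0.0221) and with arrays scaled to a common median (adjusted p = 0.0215). The other Mmp14 probe sets, 1440920_at and 1416572_at, had geometric means of 211 and 93.4 at the implantation sites and 68.7 and 25.3 in blastocysts, where no array was above background.

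Among the inhibitors, Timp1 and Timp3 were the only members above background on all 4 blastocyst arrays, and they had opposite orders between blastocyst and implantation site. Timp1 read 233 and 687 in oocytes, 596 and 1038 on the blastocyst arrays labelled KO, 650 and 1093 on those labelled WT, and 356 and 451 at the implantation sites. Both implantation site arrays lay below all 4 blastocyst arrays. The log2 difference was -1.02 (SE 0.50) and did not pass (limma adjusted p = 0.148), and that from oocyte to blastocyst was 1.02 (SE 0.50, adjusted p = 0.15).

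Timp3 read 58.3 and 214 in oocytes, 882 and 742 on the blastocyst arrays labelled KO, 522 and 573 on those labelled WT, and 3259 and 3335 at the implantation sites on probe set 1449335_at. The 3 stages did not overlap and rose in this order, with 1 of the 2 oocyte arrays above background. The differences were 2.57 from oocyte to blastocyst (SE 0.53, limma adjusted p = 0.00156) and 2.31 from blastocyst to implantation site (SE 0.53, adjusted p = 0.00551), and 4.88 over both steps (SE 0.61, adjusted p = 4.41e-05). Without the implantation site array labelled KO the second step had an adjusted p of 0.0925. All 4 Timp3 probe sets had both implantation site arrays above all blastocyst arrays, and 2 of them passed when each probe set was tested on its own. In the first step the probe sets split. On 1419089_at the oocyte arrays read 247 and 491 and blastocysts 177 to 297, a difference of -0.57 (SE 0.52, limma adjusted p = 0.492). Mostly on signals below background, 1449334_at had a fitted rise of 2.19 (SE 0.96, limma adjusted p = 0.116) and 1419088_at a fitted difference of -1.74 (SE 1.14, limma adjusted p = 0.317). Averaged over its 4 probe sets the Timp3 step was 0.61 (limma adjusted p = 0.437).

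Timp2 was split between its 6 probe sets. On the brightest, 1460287_at, signal was 258 and 389 in oocytes, 496 and 401 on the blastocyst arrays labelled KO, 46.5 and 243 on those labelled WT, and 1497 and 1562 at the implantation sites. The implantation site arrays lay above all others, with a difference from blastocysts of 2.81 (SE 0.75, limma adjusted p = 0.0139), 7.02-fold as measured with 2 of 4 blastocyst arrays above background. This call was lost without either implantation site array (adjusted p = 0.0609 without KO and 0.154 without WT), without the intensity trend (0.068) and when its probe sets were averaged (0.0649).

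Probe sets 1454677_at and 1433662_s_at showed a larger step for Timp2, from geometric means of 92.6 and 99.2 in blastocysts to 2363 and 1914 at the implantation sites. The first had no blastocyst array above background and was at least 7.53-fold higher at the implantation site (fitted log2 difference 4.67, SE 0.75, limma adjusted p = 0.00043 when tested on its own). The second had 1, and rose by 4.27 (SE 0.80, adjusted p = 0.00138). Both also passed against oocytes, where neither was above background, at least 11.2-fold and 9.11-fold higher (adjusted p = 0.00109 and 0.0014), while the brightest probe set did not (2.27, adjusted p = 0.0705). The other 3 probe sets of Timp2 did not pass. One of them, 1450040_at, ran the other way, with 107 to 1439 in blastocysts and 189 and 156 at the implantation sites, a difference of -1.56 (SE 0.95, adjusted p = 0.262). Probe sets of a gene read different parts of its transcripts, and which isoforms they cover was not analysed here.

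**Figure D3:**
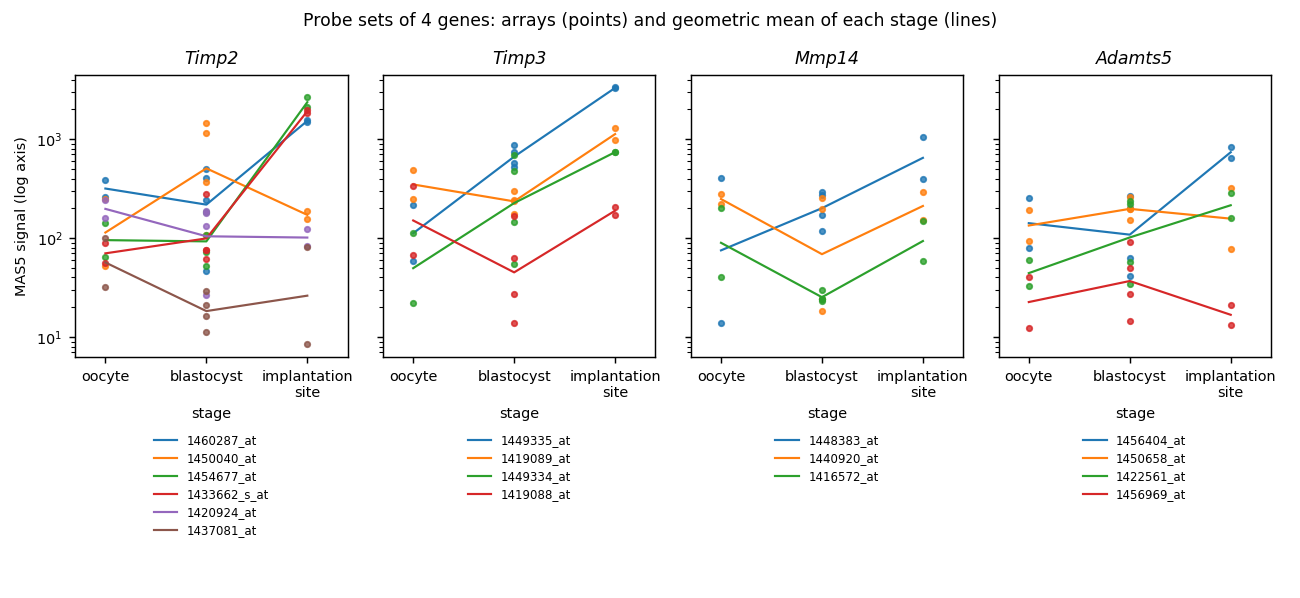
MAS5 signal (log axis) of every probe set of Timp2, Timp3, Mmp14 and Adamts5 by stage, with points for arrays and lines through the geometric mean of each stage. Timp2 probe sets 1460287_at, 1454677_at and 1433662_s_at reach 1497 to 2664 at the implantation site while the other 3 stay below 200, and only 1 Adamts5 probe set, at 837 and 650, lies above 322 there.

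The proteoglycanase gene Adamts1, which is induced in ovulating follicles, had 1 probe set. It read 461 and 519 in oocytes, 125 and 128 on the blastocyst arrays labelled KO, 19.9 and 35.8 on those labelled WT, and 1858 and 1396 at the implantation sites. No blastocyst array was above background and the 3 stages did not overlap. Adamts1 was at least 5.13-fold higher at the implantation site than in blastocysts (fitted log2 difference 4.79, SE 0.76, limma adjusted p = 0.000448). It was at least 1.56-fold higher in oocytes than in blastocysts (fitted difference -3.07, SE 0.76, adjusted p = 0.00609), a call lost without the oocyte array labelled WT (adjusted p = 0.178). The implantation site stood 3.29-fold above oocytes and did not pass (adjusted p = 0.174). Markers of cumulus and granulosa cells, which surround the oocyte, summed to 2402 and 2428 in oocytes and to between 930 and 2881 in blastocysts, and the part of such cells in the oocyte signal was not tested.

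Adamts5, the aggrecan-cleaving aggrecanase-2, was above background on its brightest probe set 1456404_at at the implantation sites alone. The signal was 255 and 78.6 in oocytes, 265 and 200 on the blastocyst arrays labelled KO, 63.1 and 41.2 on those labelled WT, and 837 and 650 at the implantation sites, which lay above all 6 other arrays. This is at least 2.35-fold above blastocysts (fitted log2 difference 2.77, SE 0.77, limma adjusted p = 0.0172) and at least 3.51-fold above oocytes (adjusted p = 0.0641). The first of these calls was lost without the implantation site array labelled KO or WT. It was also lost when the 4 probe sets were averaged (log2 difference 0.60, limma adjusted p = 0.593). Tested singly and mostly on signals below background, 1450658_at and 1456969_at ran the other way (fitted -0.33 and -1.13). For 1422561_at the fitted difference was 1.08, and none of these other probe sets passed.

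The genotype comparison in blastocysts, the only stage with replicates, gave 0 of 9 genes past an adjusted p of 0.05 in limma. Over all genes 17 passed, all higher on arrays labelled KO, or 0.0934%, and 2371 genes (13%) had an unadjusted p under 0.05, among them Timp2 and Adamts5. On their brightest probe sets 8 of the 9 genes read higher under the KO label, beside 53.9% of all genes. The median difference was 0.99, beside 0.09 for all genes. The arrays did not overlap for 6 genes, Mmp9, Mmp14, Timp2, Timp3, Adamts1 and Adamts5, all higher under the KO label, an order shown by 24.9% of all genes, and 0 genes were lower without overlap, an order shown by 20.5%. Of these 6, Mmp14, Adamts1 and Adamts5 were above background on none of the 4 arrays. Among all 24 probe sets of the group, 10 were higher and 2 lower under the KO label without overlap.

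The 3 largest of these fitted differences, in Timp2, Adamts1 and Adamts5, rested wholly or, for Timp2, in part on signals below background. Timp2 differed by 2.07 (SE 0.90, limma adjusted p = 0.372), with 46.5 on the first array labelled WT as its lowest value. Adamts1 differed by 2.24 (SE 1.06, adjusted p = 0.406) and Adamts5 by 2.18 (SE 0.95, adjusted p = 0.375), and neither gene was above background on any blastocyst array, so no fold is given for them. Without the second array labelled WT, the one with low Gja1, the differences were 3.26 for Timp2 (adjusted p = 0.0919), 2.67 for Adamts1 (0.222) and 1.87 for Adamts5 (0.288), and 0 of the 9 genes passed while 262 genes passed in all. In the same fit 8 of 9 genes read higher under the KO label with a median of 0.63, beside 51.6% of all genes and a median of 0.05. The Mmp9 difference was 0.34 in place of 0.99, Mmp14 was 1.25 in place of 1.00, and Mmp11 was -0.02 in place of 0.40. Without the first array labelled WT, the Timp2 difference was 0.88 (adjusted p = 0.561) and 4 genes passed in all. The background level was also higher on both arrays labelled KO. The 6 leukocyte markers summed to 7599 and 13943 on the arrays labelled KO against 1316 and 4552 on those labelled WT, mostly from Csf1r, while Ptprc was below background on all 4. The ratio of the 3′ to the 5′ control probe set of Actb, a sign of RNA quality, was 25.7 and 39 under the KO label and 69.3 and 69.1 under the WT label, while that of Gapdh ran the other way, at 11.2 and 11.8 against 7.27 and 7.71. The part of background, of such cells and of RNA quality in these differences was not tested. The probe sets of Timp2 and Adamts5 did not share a direction, since 3 of 6 and 2 of 4 read lower under the KO label. Nor did those of Mmp9 and Mmp14, since 1448291_at and 1416572_at read lower, while 1440920_at of Mmp14 read higher.

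For Timp3, whose brightest probe set 1449335_at was above background on all 4 blastocyst arrays, the KO minus WT difference there was 0.57 (95% interval -0.36 to 1.49, limma adjusted p = 0.583). Its probe sets 1419089_at and 1419088_at read lower under the KO label without overlap. The former was above background on the arrays labelled WT alone, and the latter on no blastocyst array. Their fitted differences of -0.40 and -2.40 are therefore not sizes, and neither passed (limma adjusted p = 0.841 and 0.438). Without the second array labelled WT these 3 differences were 0.63, -0.54 and -3.10 (adjusted p = 0.473, 0.74 and 0.249). Timp1 differed by -0.10 (-1.11 to 0.91, adjusted p = 0.945) and overlapped between the labels. Mmp2 differed by 0.32 (-1.31 to 1.95, adjusted p = 0.881). Without the second array labelled WT, Timp1 differed by 0.28 and so changed sign, and Mmp2 by 0.06 (limma adjusted p = 0.801 and 0.974). These intervals do not show that the genotypes were alike, since each spans at least 1 log2 unit on one side. A KO effect common to the 3 stages passed for 0 of 9 genes and 0% of all genes in limma, with 1153 genes (6.34%) at an unadjusted p under 0.05, of which Adamts5 was the only member (1.60, SE 0.63, adjusted p = 0.777).

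**Figure D4:**
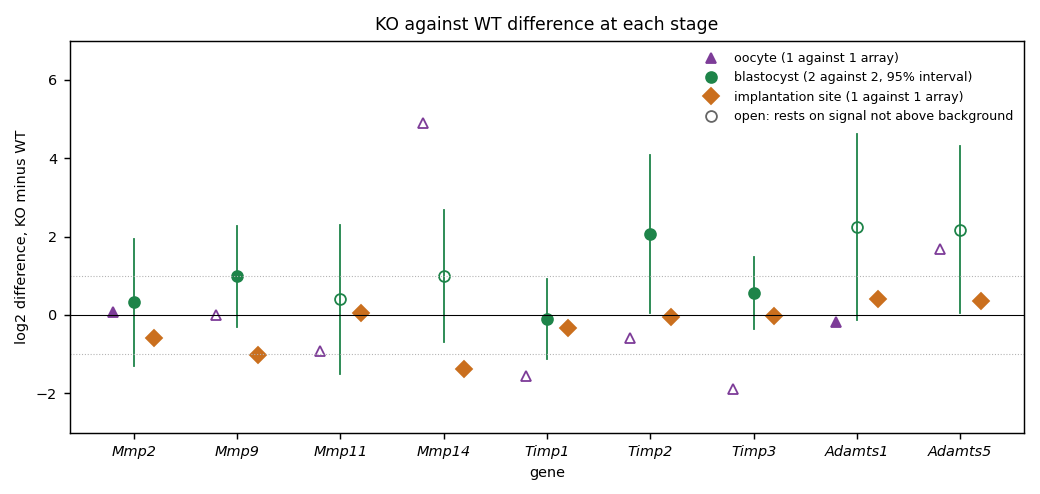
Log2 difference, arrays labelled KO minus arrays labelled WT, for each gene in oocytes (triangles, 1 against 1 array), blastocysts (circles with 95% intervals, 2 against 2) and implantation sites (diamonds, 1 against 1). Dotted lines mark 2-fold, and open symbols rest on signal not above background, so that their height is not a size. A circle is filled where at least 1 of 4 blastocyst arrays was above background. For Mmp2 this was 1 array and for Timp2 2, so filled circles can rest in part on signal below background. The open oocyte triangle of Mmp14 stands for at least 3.09-fold higher on its brightest probe set alone. The filled implantation site diamond of Mmp14 is at -1.39. Of the blastocyst circles, which show the brightest probe sets, 8 of 9 lie above 0, beside 53.9% of all genes.

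At the implantation sites, with 1 array of each genotype and so no test, 2 of the 9 genes were at least 2-fold apart, Mmp14 and Mmp9, both lower on the array labelled KO. Over all genes 34.3% were at least 2-fold apart, 24% lower and 10.3% higher under the KO label, and 59.2% of genes read lower under the KO label with a median difference of -0.22. Mmp14 was 2.62-fold lower (400 against 1047), and its other probe sets were lower too, at 152 against 293 and 58.4 against 149. Mmp9 was 2.02-fold lower (225 against 454) on its brightest probe set, while 1448291_at was not above background on either array. Mmp2 was 1.5-fold and 1.83-fold lower on its 2 probe sets. Scaled to a common median, a step that moved the median of all genes by 0.41, Mmp14 and Mmp9 differed by -0.98 and -0.61 and 0 genes of the group were 2-fold apart.

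The brightest probe sets of the inhibitor and ADAMTS genes were less than 2-fold apart between the implantation site arrays. Timp2 read 1497 and 1562, Timp3 3259 and 3335, and Timp1 356 and 451 under the KO and WT labels. Adamts1 was 1.33-fold and Adamts5 1.29-fold higher under the KO label. The other Adamts5 probe sets did not share this, since 1450658_at was at least 3.21-fold higher (322 against 76.7, the latter below background) and 1422561_at was 1.79-fold lower. As reported 3 of the 9 genes read higher there under the KO label, and 6 did after scaling to a common median, as Timp1, Timp2 and Timp3 changed sign. With quantile normalization the count was 3.

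In oocytes, again without replicates, 4 genes were at least 2-fold apart, 2 higher and 2 lower on the array labelled KO, while 33.8% of all genes were higher, 12.3% lower and 46.1% that far apart in either direction. With quantile normalization or a common median 6 genes were, 2 higher and 4 lower. On its brightest probe set Mmp14 was at least 3.09-fold higher under the KO label (409 against 13.8, the latter below a background of 132). That 409 lay below 588, the brightest control probe set among those not used for background. The other Mmp14 probe sets also read higher under the KO label but gave no fold. Of these, 1440920_at read 280 and 220 and was above background under the WT label alone. Probe set 1416572_at read 199 and 40.3, both below background. Timp1 was at least 2.06-fold lower (233, below a background of 334, against 687). Timp3 and Adamts5 were apart by 2-fold in signal, but no fold can be given because the dimmer array's background exceeded the brighter signal for Timp3 and both Adamts5 signals were below background. Mmp2 read 927 and 875 and Adamts1 461 and 519, within 1.13-fold of each other, while the other Mmp2 probe set read 2008 and 1102, 1.82-fold higher under the KO label. The 3′ to 5′ ratio was 6.68 for Actb and 2.41 for Gapdh on the array labelled KO and 33.4 and 10.1 on that labelled WT, and its part in these differences was not tested.

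Other genes of the matrix-cleaving system were taken from lists of relatives, regulators and substrates. Of 14 further MMP genes, 2 were higher and 1 lower at the implantation site than in blastocysts, and of 13 further ADAMTS genes, 5 were higher and 0 lower, beside 10.5% higher and 15.1% lower among all genes. The median fitted difference was -0.39 for the MMPs and 1.88 for the ADAMTS genes, beside -0.49 for all genes. Mmp3, stromelysin-1, read 401 and 680 at the implantation sites and at most 191 in blastocysts, at least 1.66-fold higher (fitted log2 difference 3.75, SE 1.08, limma adjusted p = 0.0206). Mmp23 read 1283 and 1455 against at most 86.9, at least 4.36-fold higher (fitted 4.55, SE 0.88, limma adjusted p = 0.00183). Mmp8, the neutrophil collagenase, was lower (fitted -2.89, SE 0.94, limma adjusted p = 0.0354), with 11 and 60.4 at the implantation sites, both below background. Only 1 of 4 blastocyst arrays was above background for Mmp8, so no fold is given.

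Within the ADAMTS family, Adamts20 read 1469 and 1244 at the implantation sites and at most 79.8 in blastocysts, where no array was above background, and was at least 4.31-fold higher (fitted log2 difference 5.55, SE 0.97, limma adjusted p = 0.000879). Adamts9, a versican-cleaving protease, read 3295 and 2813 there, 800 and 1020 on the blastocyst arrays labelled KO and 99 and 44.4 on those labelled WT, with the KO arrays alone above background (3.64, SE 0.70, adjusted p = 0.00172). Adamts3, a procollagen processing enzyme, differed by 2.55 (adjusted p = 0.00149), and Adamts15 was at least 2.44-fold higher (fitted 2.11, adjusted p = 0.0227). The fifth, Adamts4, was named after its values were seen and differed by 1.88 (limma adjusted p = 0.0107).

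Regulators of these proteases went both ways from blastocyst to implantation site, with 3 of 15 higher and 3 lower, beside the same 10.5% and 15.1% of all genes. Pcsk5, a proprotein convertase, read 23344 and 13909 at the implantation sites and at most 155 in blastocysts, below background on all 4 arrays, and was at least 57.5-fold higher (fitted log2 difference 8.78, SE 0.66, limma adjusted p = 9.17e-07). Reck, a membrane-anchored MMP inhibitor, read 1762 and 2126 there and between 17.5 and 407 in blastocysts (fitted 4.97, SE 1.05, limma adjusted p = 0.00349). A2m, the broad protease inhibitor alpha-2-macroglobulin, was also higher (fitted 3.29, SE 0.91, limma adjusted p = 0.0172). For both Reck and A2m only 1 of 4 blastocyst arrays was above background. Plaur, the urokinase receptor, was lower at 263 and 276 against 755 to 2711 in blastocysts (-2.48, SE 0.54, adjusted p = 0.00438).

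Between oocyte and blastocyst, 0 of the 14 further MMPs passed in limma, while 2 of 15 regulators rose and 3 fell, beside 16.9% and 13.1% of all genes. Plat, tissue plasminogen activator, a transcript known from mouse oocytes, fell from 4327 and 6398 in oocytes to between 471 and 826 in blastocysts (-3.12, SE 0.38, limma adjusted p = 1.97e-05), and Pcsk5 fell at least 2.62-fold (fitted -4.32, SE 0.66, adjusted p = 0.000147). Plaur rose at least 7.14-fold (fitted 3.95, SE 0.54, adjusted p = 5.75e-05) and Pcsk6, another convertase, at least 4.27-fold (fitted 2.69, SE 0.65, adjusted p = 0.00529), as no oocyte array was above background for either.

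Of 20 matrix substrates, 10 were higher and 1 lower at the implantation site than in blastocysts, with a median fitted difference of 1.92, and 10.5% and 15.1% of all genes passed in these directions. The fibrillar collagen genes Col3a1 and Col1a1 read 47005 and 37300, and 39380 and 38262, at the implantation sites. Col3a1 was below background on all blastocyst arrays and at least 133-fold higher (fitted log2 difference 9.31, SE 0.57, limma adjusted p = 1.36e-07), and Col1a1, with 1 of 4 above it, differed by 8.42 (SE 0.77, adjusted p = 4.64e-06). Vcan, the gene of the ADAMTS substrate versican, read 8247 and 7128 there and at most 187 in blastocysts, at least 24.4-fold higher (fitted 6.29, SE 0.61, adjusted p = 7.48e-06). In oocytes Vcan read 463 and 996 and fell at least 2.17-fold to the blastocyst (fitted -2.79, SE 0.61, adjusted p = 0.00248), as Adamts1 and Mmp2 did. In the blastocyst comparison of KO with WT, 0 of the 62 genes on these 4 lists passed in limma. Under the KO label 12 of 13 ADAMTS genes read higher (median 1.06), 12 of 15 regulators (0.43), 11 of 20 substrates (0.20) and 7 of 14 further MMPs (0.01), beside 53.9% of all genes (0.09). Without the second array labelled WT the counts were 11, 11, 12 and 9 (medians 1.39, 0.55, 0.44 and 1.03), beside 51.6% of all genes. Adamts9 then passed (3.19, limma adjusted p = 0.048), named after its value was seen.

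The likeness of each gene's profile to others was measured by Pearson correlation of log2 signal over the 8 arrays, among 14662 genes above background on at least 2 arrays, as a description without a test. The 8 points fall into 3 stages, and a high value can come from the stage steps alone. The members themselves had no such filter. Mmp11 and Adamts5 were above background on 2 arrays and Mmp14 on 3, so their profiles are mostly signals below background. Mmp2 was closest to Atrnl1 (r = 0.992), Wnt5a and Aga, Adamts1 to Wls (0.992), Mindy2 and Zeb2, and Timp3 to Ggnbp2 (0.993), Ro60 and Skida1. Timp2 was closest to Pde7b (0.979), Opcml and Gtpbp2, and Adamts5 to Depp1 (0.977), Sh3pxd2b and Ttr. For Mmp9 the closest was Ankrd13b (0.960), for Mmp11 Gstk1 (0.984), for Mmp14 Mical1 (0.975) and for Timp1 Gm4814 (0.971). Within the group, Mmp2 and Adamts1 had r = 0.921, Timp2 and Adamts1 0.852, and Mmp2 and Timp1 -0.70.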

How the data were processed

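The authors deposited 1 table of array signal intensity on a linear scale for 8 samples of polyadenylated RNA, computed with MAS5 per the submitters' processing notes, which name no version. Background was taken from 15 Bacillus control probe sets, without 12 further ones, on the assumption that no Bacillus RNA had been added. Arrays carry no count of reads, so precision is limited by how many there are.

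Of 45101 probe sets, the platform table ties 34945 to a single gene, 932 to several and 9160 to none, and 64 are controls. For each of 18193 genes, log2 signal of the probe set with the highest mean was tested without a filter on low signal in limma 3.58.1 (R 4.3.3; lmFit and eBayes, trend on mean signal, two-sided tests, Benjamini-Hochberg adjustment over all genes). The genotypes were compared on the 4 blastocyst arrays. A model of stage plus genotype on 8 arrays, in which stages share 1 estimate of the spread, gave the stage differences and a KO effect common to the stages. Single-array pairs (oocytes, implantation sites) were described by folds. A model with every group as its own term, added after the data were seen, compared KO effects between stages.

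The members and the other gene lists were chosen with earlier results of these data known. All members were named, with up to 4 genes of each other list that had the largest differences past the threshold in a comparison, of which a selection is given, and the 3 genes most correlated with a member. Alternatives covered the scaling (quantile, common median), a pseudocount of 50, averaged or single probe sets, the upper 50% of probe sets, no trend, a replicate block, no genotype term and each array left out. The fits were tested on simulated data. Promoter windows came from RefSeq, GRCm38.p6. Plots were drawn with matplotlib 3.10.9.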

Additional observations from a re-analysis of the deposited data

Results flagged for a closer look

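Between stages, 2 genes had KO minus WT differences of opposite sign that rested on signal above background, under the conditions that a pair of lone arrays was at least 2-fold apart, as a fold or as a bound, and that blastocyst arrays did not overlap and were above background on both arrays of the brighter label. For Mmp9, which was higher under the KO label in blastocysts and lower at the implantation site, the implantation site minus blastocyst difference was -2.0 log2 units (SE 1.02, limma adjusted p = 0.472) and did not pass, with the spread of the blastocyst replicates assumed for the lone arrays. For Mmp14, the oocyte array labelled WT was below background on the brightest probe set. The implantation site minus oocyte difference is therefore a bound, at least as far below 0 as -3.02, and was not tested. It rests on that probe set alone, since the other Mmp14 probe sets gave no fold in oocytes. The oocyte signal under the KO label, 409, was also below the brightest of the control probe sets not used (588). With arrays scaled to a common median Mmp9 and Mmp14 were less than 2-fold apart at the implantation site (-0.61 and -0.98). The Mmp9 blastocyst difference was 0.99 with all arrays and 0.34 without the second array labelled WT, which was below background at 196. Mmp9 probe set 1448291_at differed by -0.90 in blastocysts and 0.36 at the implantation site, and was above background on 1 array alone.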

How the results depend on the processing

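The blastocyst KO against WT count and the common KO count stayed at 0 in every alternative run, of 9 genes or, in the upper 50% of probe sets where Mmp11 was left out, of 8, and the blastocyst against oocyte count ranged from 2 to 4 on leaving out each array. Over all genes, the blastocyst KO against WT fit called 17 as reported, 34 with quantile normalization, 35 with a common median, 37 with the pseudocount, 0 with the mean of probe sets or without the trend, 12 in the upper 50% of probe sets, 10 with each probe set on its own, 315 with the replicate block, and 34, 30, 4 and 262 without KO replicate 1, KO replicate 2, WT replicate 1 and WT replicate 2. The block shares only a number between KO and WT: the replicate differences of the labels had a correlation of 0.0029 over genes in 2 pairs, and 0 of 9 genes passed with the block. The implantation site against oocyte count of 2 became 5 with a common median and 4 with the pseudocount, and ranged from 1 to 3 on leaving out each array, lowest without the oocyte or the implantation site array labelled WT. The implantation site against blastocyst count of 5 became 3 with the mean of all probe sets and ranged from 2 to 5 on leaving out each array, lowest without the implantation site array labelled KO. The implantation site count of 2 genes 2-fold apart became 1 with quantile normalization, 1 with the pseudocount, 1 with the mean of probe sets and 0 with a common median. Signs reversed for Mmp14 from oocyte to blastocyst (1.42 as reported, -0.75 with the mean of probe sets, -0.93 to 3.76 on leaving out each array, lowest without the oocyte array labelled WT), for Mmp14 from blastocyst to implantation site (1.69 as reported, -0.15 to 3.53 on leaving out each array, lowest without the implantation site array labelled WT), and in oocytes for Timp3 (0.45) and Adamts5 (-0.49) with the mean of probe sets; the cause was not tested. Mmp2 and Adamts1 from blastocyst to implantation site, Mmp2 from oocyte to blastocyst and Timp3 from oocyte to implantation site passed in all 15 alternatives run for each. Where an alternative left a group with 1 array, its spread was assumed to be that of the others. Signals near the background level limit every blastocyst value but those of Timp1 and, on its brightest probe set, Timp3.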
